A study of Mus musculus with 6 samples.

Results

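The 7 genes Scn1a, Scn2b, Scn3a, Scn3b, Scn4b, Scn8a and Scn9a encode subunits of voltage-gated sodium channels. They were measured here by 21 probe sets of an Affymetrix mouse array, each a set of short probes directed at 1 or more transcripts. The members were chosen by name: every probe set annotated to exactly 1 of these 7 genes was taken, 21 of the 45037 probe sets of the array that are not controls and 7 of 18193 annotated genes. RNA came from cultured brain cells of mouse embryos at E12.5, labelled NSP, which the labels do not spell out. In 3 samples a lentivirus expressed a short hairpin RNA (shRNA) against REST and in 3 it expressed a control shRNA (CTL). All 6 cultures were grown to confluence, split, infected overnight and collected after 6 days, so the control cells carry a virus and a hairpin too. The labels name no strain and give no separate embryos or cultures for the replicates, and the p-values then cover only the spread of these 6 samples, which could be technical. No sort of the cells is named, and in such bulk RNA fewer cells of a type and less RNA per cell cannot be told apart.

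A voltage-gated sodium channel opens when the membrane depolarises and carries the inward current that starts and conducts the action potential. A large alpha subunit forms the pore and senses the voltage, and smaller beta subunits, single-pass membrane proteins with an immunoglobulin fold, tune its gating and its placement in the membrane and also act in cell adhesion. REST is a zinc finger repressor that keeps many neuronal genes low in cells that are not neurons, through a DNA element called RE1. That element was first described in the rat in the gene of the type II sodium channel, the counterpart of mouse Scn2a. The comparison of REST shRNA with control shRNA asks which of the channel subunits differ in level once REST is targeted.

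Among the 7 genes, Scn3b stood apart in these values. Both of its probe sets read higher with REST shRNA in all 3 pairs of arrays that share a replicate number, and the group means differed by 1.97-fold and 2.54-fold. The group means of Scn2b were higher by 1.13-fold to 1.38-fold. Its groups overlapped in every probe set, and its probe sets were not all higher in pairs 2 and 3. Of the 5 probe sets of Scn8a, 4 lay above background on every array with differences between -0.01 and 0.41 on the log2 scale. The fifth, close to background, differed by -0.41 and was lower in all 3 pairs. The other 4 genes likewise showed no direction that their probe sets and pairs shared, and Scn4b lay below background on all 6 arrays. Over the whole table no probe set passed an adjusted p of 0.05 with limma (0 of 45037, 0%), so none of the 21 was called in either direction. At an unadjusted p under 0.05 there were 692 probe sets higher with REST shRNA (1.54% of the table) and 868 lower (1.93%). Together these are fewer than a threshold of 0.05 gives where no probe set differs, so this fit showed no excess of small p-values. Of the 21 members 2 were higher at this threshold, both of Scn3b, and 0 lower. With each array centred on its median the split of the table was 899 higher and 675 lower. Of the Scn3b probe sets, 1435767_at did not reach an unadjusted 0.05 without REST shRNA array 3, where the limma p was 0.0554, or in the unequal-variance test, where the p was 0.073.

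The values are log2 signals as deposited, from 1.00 to 14.2, and 3 arrays per group limit the precision. The background reference is the highest reading of 27 probe sets for bacterial transcripts, which mouse cells do not make, 3.24, and a difference near it is understated. Probes differ in how well they bind, so the level of a probe set is set against the background and against itself in the other group, never against another probe set. The targeted transcript was lower with REST shRNA: the brightest probe set of Rest (1428227_at) read 8.63, 7.70 and 8.20 in REST shRNA arrays 1, 2 and 3, against 8.92, 8.75 and 8.90 in control arrays 1, 2 and 3. All 4 probe sets of Rest were lower in each pair, with levels at 57.3% to 71.5% of control and unadjusted limma p-values from 0.00175 to 0.0323, none past the adjusted threshold. REST shRNA array 2 stood apart from the rest of the arrays in astrocyte markers, whose mean over 7 genes was 7.14 there and 8.75 to 9.22 elsewhere. This mean differed by 0.05, -1.62 and 0.23 in pairs 1, 2 and 3. By group means 0 of the 7 astrocyte markers read higher with REST shRNA, with a median log2 difference of -0.36. Of 10 neural progenitor markers 2 read higher, with a median of -0.21, and 0 of either list were called. Neural progenitor markers were bright on all 6 arrays (list mean 9.77 to 9.97 with REST shRNA and 9.95 to 10.02 in control), and neuron, astrocyte and oligodendrocyte lineage markers were present too.

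**Figure D1:**
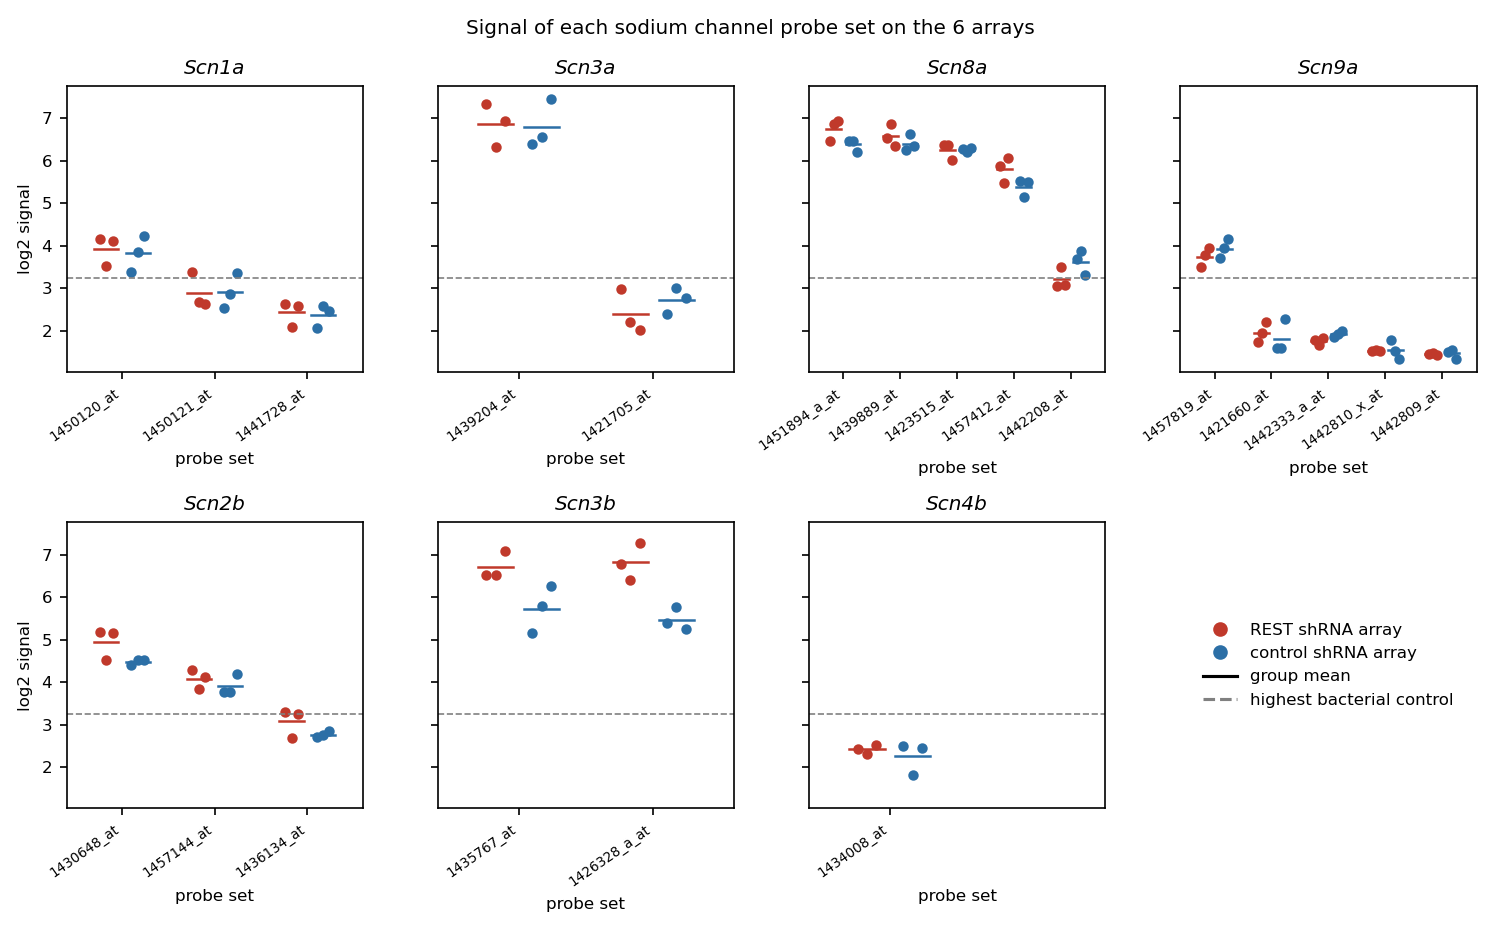
Log2 signal (y axis) of every sodium channel probe set (x axis, 1 panel per gene), with 1 point per array, REST shRNA left and control shRNA right, short lines at the group means and a dashed line at the highest bacterial control, 3.24. The 2 probe sets of Scn3b have all 3 REST shRNA points above all 3 control points, while Scn4b and 4 of 5 probe sets of Scn9a lie below the dashed line on every array.

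The annotated starts of these genes differ in their sequence. RefSeq windows of build GRCm38.p6, from 250 bases before to 50 after a start, were held for 5 of the 7 genes (6 windows) and not for Scn3a and Scn3b. Shown here are the windows of Scn2b and Scn4b, which are neighbours on chromosome 9, and the pair of alternative starts of Scn8a on chromosome 15, with every CG pair in capitals, since CG-rich starts are typical of broadly active promoters. They lie at chr9:45117626-45117925, chr9:45138374-45138673, chr15:100870395-100870694 and chr15:100936021-100936320, all on the plus strand, and are written 5′ to 3′.
Scn2b: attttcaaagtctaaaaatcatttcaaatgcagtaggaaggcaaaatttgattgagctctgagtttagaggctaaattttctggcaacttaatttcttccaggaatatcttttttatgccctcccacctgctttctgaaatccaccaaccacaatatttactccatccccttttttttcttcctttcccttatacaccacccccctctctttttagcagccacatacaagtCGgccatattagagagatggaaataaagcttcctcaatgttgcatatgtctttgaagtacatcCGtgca
Scn4b: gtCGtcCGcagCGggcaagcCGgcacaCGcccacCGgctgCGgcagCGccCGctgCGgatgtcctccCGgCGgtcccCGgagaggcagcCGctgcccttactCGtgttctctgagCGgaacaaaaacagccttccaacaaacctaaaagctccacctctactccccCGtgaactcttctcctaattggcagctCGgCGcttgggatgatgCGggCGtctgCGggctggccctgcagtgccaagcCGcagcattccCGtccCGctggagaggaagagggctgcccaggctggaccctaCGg
Scn8a, upstream start: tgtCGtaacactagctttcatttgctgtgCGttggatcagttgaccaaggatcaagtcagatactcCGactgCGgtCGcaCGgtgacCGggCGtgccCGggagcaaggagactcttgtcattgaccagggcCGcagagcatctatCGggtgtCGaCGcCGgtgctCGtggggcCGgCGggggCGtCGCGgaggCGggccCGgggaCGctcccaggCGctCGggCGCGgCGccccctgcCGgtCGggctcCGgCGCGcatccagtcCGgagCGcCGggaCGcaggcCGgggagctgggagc
Scn8a, downstream start: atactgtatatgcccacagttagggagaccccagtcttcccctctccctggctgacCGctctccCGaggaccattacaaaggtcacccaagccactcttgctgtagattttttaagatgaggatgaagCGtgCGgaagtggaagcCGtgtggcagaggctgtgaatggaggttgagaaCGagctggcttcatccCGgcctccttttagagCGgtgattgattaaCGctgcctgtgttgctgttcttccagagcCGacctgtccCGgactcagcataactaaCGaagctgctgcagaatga

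The window of Scn2b holds 2 CG pairs and that of Scn4b 26, and the windows of Scn8a hold 38 at the upstream and 12 at the downstream start, where the median over all 32851 windows is 7. Scn2b, with few CG pairs, had a mean above background here in 2 of 3 probe sets and Scn4b, with many, did not. Scn8a, with the most, had a mean above background in all 5 of its probe sets. A relation of CG pairs to signal was not tested. The letters of the RE1 core (CAGCACC, then 2 bases of any kind, then GGACAG, on either strand) were in none of the 6 windows of these genes and in 0.0365% of all windows. The left part alone (CAGCACC) was in none of the 6 and in 7.14% of all windows. The right part alone (GGACAG) was in 1 of the 6, the downstream start of Scn8a, on the minus strand from base 258 of the window, and in 22.2% of all windows. RE1 elements often lie outside such short windows, so the absence of these letters is a description of the windows only.

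Scn3b encodes a beta subunit that joins the alpha subunit without a covalent bond and that is known from embryonic brain. Its probe set 1426328_a_at read 6.77, 6.40 and 7.28 in REST shRNA arrays 1, 2 and 3, against 5.39, 5.76 and 5.26 in control arrays 1, 2 and 3. Its probe set 1435767_at read 6.53, 6.52 and 7.08 in the REST shRNA arrays, against 5.15, 5.78 and 6.26 in the control arrays. In both, the lowest REST shRNA array lay above the highest control array, with a gap of 0.645 for 1426328_a_at and 0.256 for 1435767_at on the log2 scale. The probe sets differ over control array 3, which was the lowest control array in 1426328_a_at and the highest in 1435767_at.

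The group means of 1426328_a_at were 6.82 ± 0.44 with REST shRNA and 5.47 ± 0.25 in control (SD, n = 3 each), a log2 difference of 1.35 ± 0.26 (SE, 95% interval 0.73 to 1.97). Those of 1435767_at were 6.71 ± 0.32 with REST shRNA and 5.73 ± 0.56 in control (SD, n = 3 each), a log2 difference of 0.98 ± 0.31 (SE, 95% interval 0.23 to 1.72). The unadjusted limma p was 0.00139 for 1426328_a_at, rank 42 in the table of 45037, and 0.0171 for 1435767_at, rank 449, and the adjusted p was 1 for both. The exact permutation p, two-sided, was 0.1 in both cases, the lowest that 3 against 3 arrays can reach. Per replicate number, 1426328_a_at differed by 1.38, 0.64 and 2.02 in pairs 1, 2 and 3 and 1435767_at by 1.38, 0.74 and 0.82, so the smallest difference was in pair 2 for both. In the same pairs the brightest probe set of Rest differed by -0.28, -1.05 and -0.70, largest in pair 2, whereas in 1425564_at of Rest they were -0.98, -0.84 and -0.59. Without REST shRNA array 2, which stands apart in astrocyte markers, Scn3b differed by 1.55 in 1426328_a_at and 1.07 in 1435767_at.

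Neuron markers read higher on average on the same arrays as Scn3b. The mean log2 signal of 10 neuron markers was 7.98 to 8.59 in the REST shRNA arrays and 7.42 to 7.78 in the control arrays, and it differed by 1.03, 0.41 and 0.81 in pairs 1, 2 and 3, smallest in pair 2 as for Scn3b. Of these 10 markers 7 read higher, 4 of them at an unadjusted p under 0.05 and 0 called, with a median log2 difference of 0.68. Snap25, a protein of vesicle fusion and a known REST target, read 9.25, 9.02 and 9.09 in the REST shRNA arrays, against 7.37, 7.22 and 8.03 in the control arrays. The markers that read lower were Map2, Dcx and Elavl4, with log2 differences of -0.10, -0.20 and -0.21. In REST shRNA array 2, Dcx, Elavl4, Tubb3 and Syt1 lay below every control array. The part of the neuron markers in the difference of Scn3b was not tested. Oligodendrocyte lineage markers ranged from 8.23 to 9.47 with REST shRNA and 8.42 to 8.87 in control, and microglia markers from 3.03 to 3.26 with REST shRNA and 2.86 to 2.99 in control, where 2 of the 5 microglia genes had a mean above background.

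**Figure D2:**
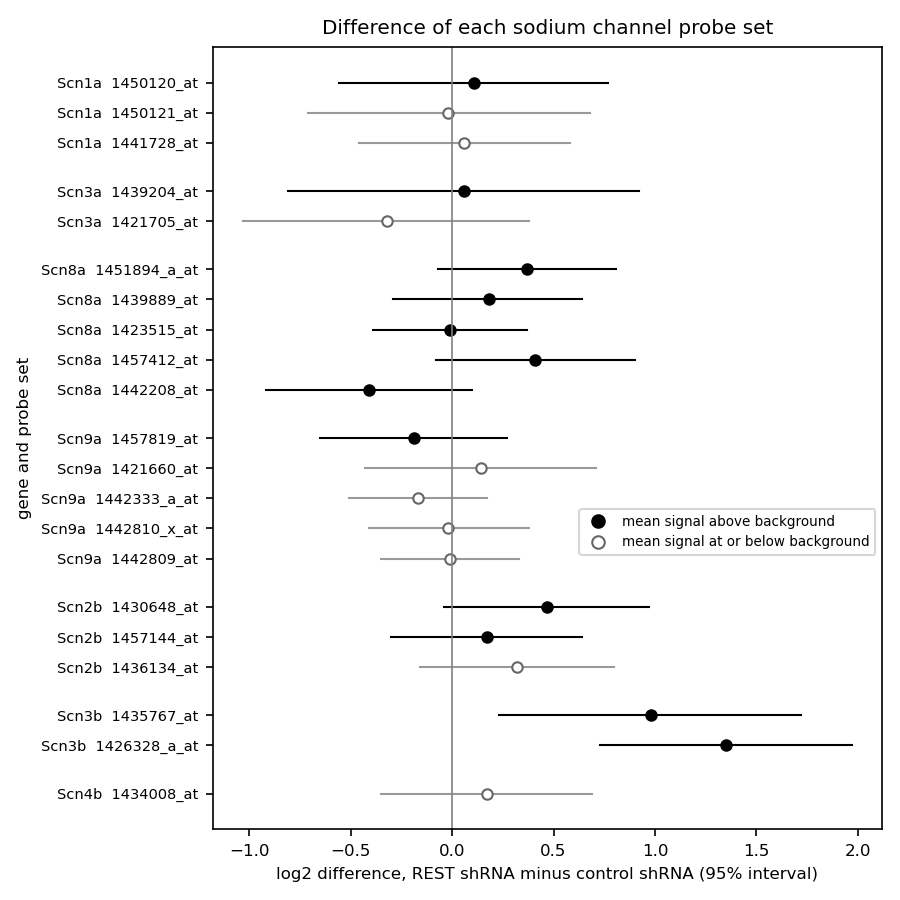
Log2 difference, REST shRNA minus control shRNA, of each of the 21 probe sets (x axis, points) with its 95% interval from limma (lines), grouped by gene (y axis), filled where the mean signal was above background. Only the intervals of the 2 Scn3b probe sets, 0.73 to 1.97 and 0.23 to 1.72, leave out 0.

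Scn2b encodes a beta subunit that is bound to the alpha subunit by a disulfide bridge. Its brightest probe set (1430648_at) read 5.17, 4.52 and 5.15 in REST shRNA arrays 1, 2 and 3, against 4.40, 4.52 and 4.51 in control arrays 1, 2 and 3. REST shRNA arrays 1 and 3 lay above all control arrays, and REST shRNA array 2 lay level with them. The log2 difference was 0.47 ± 0.21 (SE, 95% interval -0.04 to 0.97, unadjusted limma p = 0.0653, exact permutation p = 0.2). It was 0.77, 0.00 and 0.63 in pairs 1, 2 and 3, 0.68 with REST shRNA array 2 left out and 0.35 with REST shRNA array 1 left out. The probe set 1457144_at differed by 0.17 (95% interval -0.30 to 0.64), with pairs at 0.50, 0.06 and -0.05, and by 0.07 without REST shRNA array 1, 0.10 without control array 1 or 2, 0.29 without REST shRNA array 2 and 0.31 without control array 3. The third, 1436134_at, differed by 0.32 (95% interval -0.16 to 0.80) with a mean of 2.92, below background, and only REST shRNA arrays 1 and 3, at 3.30 and 3.24, reached above it. It differed by 0.20 with REST shRNA array 1 left out and by 0.51 with REST shRNA array 2 left out. All 3 probe sets had their largest difference in pair 1, and in each the groups overlapped.

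Scn4b encodes the other beta subunit with a disulfide bridge, known in mature neurons for its part in resurgent sodium current. Its single probe set (1434008_at) read 2.43, 2.31 and 2.51 with REST shRNA and 2.49, 1.81 and 2.44 in control, all below the background reference. The log2 difference was 0.17 ± 0.22 (SE, 95% interval -0.35 to 0.69), and the groups overlapped. A transcript of Scn4b was not detectable above background in either group, and its difference is bounded only as far as a signal at background can show one.

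Scn8a encodes Nav1.6, the alpha subunit of axon initial segments and nodes of Ranvier in mature neurons. It has 5 probe sets, of which 4 were well above background. Of these, 1423515_at differed by only -0.01 and the others were positive. Probe set 1451894_a_at read 6.47, 6.85 and 6.93 in REST shRNA arrays 1, 2 and 3, against 6.46, 6.47 and 6.21 in control arrays 1, 2 and 3. Its groups did not overlap, but by 0.001 on the log2 scale only, and the difference was 0.37 ± 0.19 (SE, 95% interval -0.07 to 0.81, unadjusted limma p = 0.0841, exact permutation p = 0.1). Probe set 1457412_at read 5.88, 5.48 and 6.05 with REST shRNA, against 5.52, 5.15 and 5.50 in control, a difference of 0.41 ± 0.21 (SE, 95% interval -0.08 to 0.90) that was positive in all 3 pairs with overlapping groups.

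The other bright probe sets of Scn8a differed less. Probe set 1439889_at differed by 0.18 (95% interval -0.29 to 0.64) and 1423515_at by -0.01 (95% interval -0.39 to 0.37), and both had overlapping groups. The fifth, 1442208_at, lay close to background and ran the other way in all 3 pairs. It read 3.06, 3.50 and 3.08 with REST shRNA, against 3.68, 3.87 and 3.31 in control, a log2 difference of -0.41 ± 0.21 (SE, 95% interval -0.92 to 0.10). The 5 probe sets may read different transcripts of the gene, and which transcript each one reads was not analysed here. For the brightest, a difference above 0.81 on the log2 scale lies outside the 95% interval.

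Scn1a, which encodes Nav1.1, is known as the main alpha subunit of fast-spiking inhibitory neurons, and Scn3a encodes Nav1.3, the alpha subunit typical of embryonic neurons. They lie in 1 cluster on chromosome 2, in the order Scn3a, Scn2a, Scn1a, Scn9a and Scn7a by the RefSeq table. The bright probe set of Scn3a (1439204_at) read 7.34, 6.31 and 6.92 in REST shRNA arrays 1, 2 and 3, against 6.39, 6.55 and 7.45 in control arrays 1, 2 and 3. The groups overlapped over nearly their whole range, with a log2 difference of 0.06 ± 0.36 (SE, 95% interval -0.81 to 0.92). The second probe set of Scn3a (1421705_at) lay below background on all 6 arrays and differed by -0.32 (95% interval -1.03 to 0.38).

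For Scn1a, 1 of 3 probe sets had a mean above background. This probe set (1450120_at) read 4.15, 3.52 and 4.11 in the REST shRNA arrays, against 3.37, 3.86 and 4.23 in the control arrays, a difference of 0.11 ± 0.28 (SE, 95% interval -0.56 to 0.77). The others differed by -0.02 and 0.06. The pairs disagreed in sign for both genes. All 5 probe sets of Scn1a and Scn3a were higher in pair 1, and all 5 were lower in pair 2. In pair 3, 4 of the 5 were lower. The bright Scn3a probe set differed by 0.94, -0.24 and -0.53 in pairs 1, 2 and 3, and that of Scn1a by 0.79, -0.34 and -0.12. With such spread the direction of both genes rested on single arrays: without REST shRNA array 1 the difference was -0.18 for Scn3a and -0.01 for Scn1a in these probe sets. It was -0.15 and -0.12 without control array 1, and -0.07 for Scn3a without control array 2.

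Scn9a encodes Nav1.7, the alpha subunit known from sensory and sympathetic neurons outside the brain. Of its 5 probe sets, 4 lay below background on every array, with means from 1.45 to 1.88. The brightest (1457819_at) read 3.50, 3.78 and 3.94 with REST shRNA, against 3.70, 3.94 and 4.15 in control. It was lower in each pair, by -0.20, -0.16 and -0.21, but the groups overlapped and the log2 difference of -0.19 ± 0.19 had a 95% interval of -0.65 to 0.27. Probe set 1442333_a_at was the only one of the 21 whose groups did not overlap in the lower direction, with a difference of -0.17 at a mean of 1.84, below background. Markers of neural crest or peripheral glia, of which 3 of the 4 measured genes were above background, averaged 3.72 to 4.23 with REST shRNA and 3.82 to 4.07 in control.

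**Figure D3:**
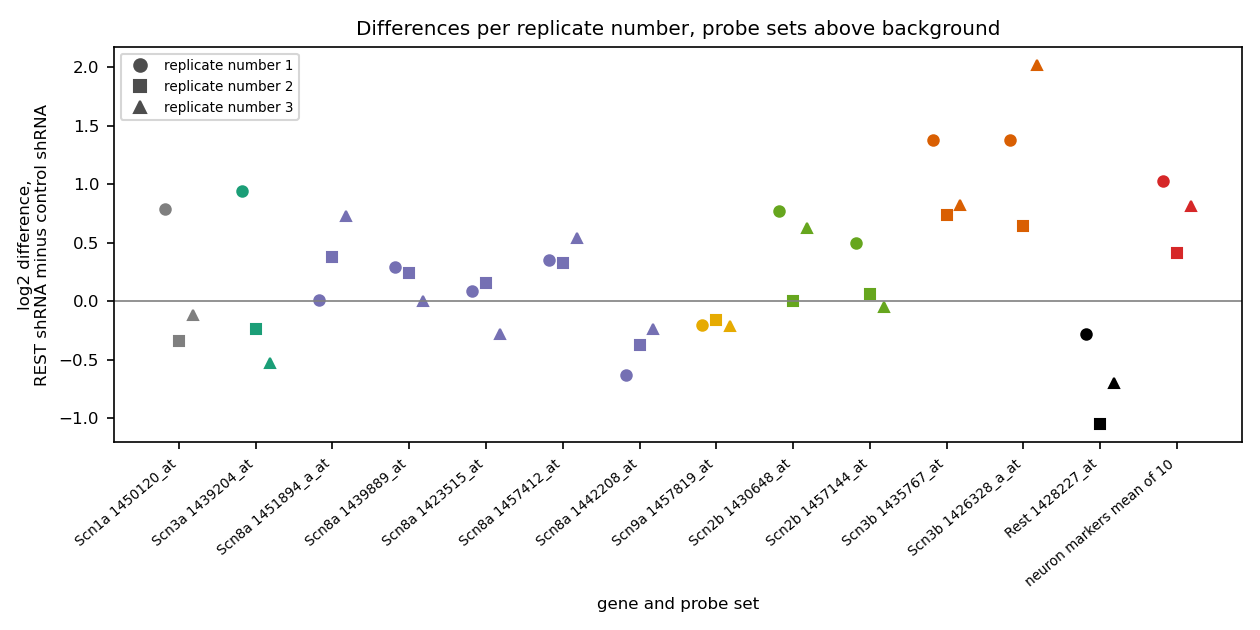
Log2 difference, REST shRNA minus control shRNA (y axis), within each replicate number (marker shape) for the 12 sodium channel probe sets with a mean above background, with the brightest probe set of Rest and the mean of 10 neuron markers at the right. Scn3b and the neuron markers are positive in all 3 pairs and smallest in pair 2, while Scn1a and Scn3a are positive in pair 1 only.

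As a group, the 21 probe sets leaned slightly upward. Of these, 13 had a positive log2 difference (61.9%) and 8 a negative one, with a median of 0.11, while 52.6% of the whole table was positive with a median of 0.01. Without the 2 probe sets of Scn3b the median was 0.06. The median over the 21 depended on single arrays. It was 0.27 without control array 3, 0.22 without REST shRNA array 2, 0.03 without either control array 1 or control array 2, and -0.01 with REST shRNA array 1 left out. The groups did not overlap in 3 of the 21 in the higher direction, Scn3b with both and Scn8a with 1, where 4.35% of the table did so, and in 1 in the lower direction, where 3.9% did so. Several probe sets of a gene read the same RNA, so these counts do not stand for 21 independent measurements.

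A mean above background was reached by 12 of the 21 probe sets (57.1%), against 71.6% of the whole table, and 7 of the 21 lay below it on every array. At the stricter reference, the 95th percentile of 80 olfactory and vomeronasal receptor probe sets at 3.43, 11 of the 21 remained above. Of the 7 genes, 6 had at least 1 probe set above the bacterial reference, the exception being Scn4b.

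**Figure D4:**
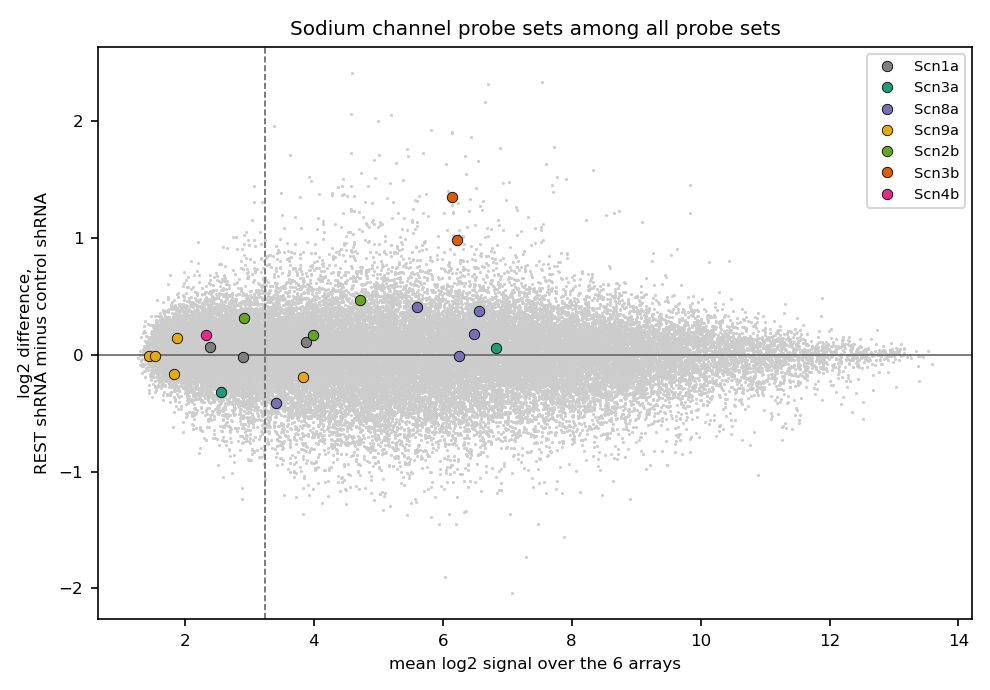
Log2 difference, REST shRNA minus control shRNA (y axis), against the mean log2 signal over the 6 arrays (x axis) for all 45037 probe sets in grey, with the 21 sodium channel probe sets in colour and a dashed line at the highest bacterial control, 3.24. The 2 Scn3b points, at 0.98 and 1.35, lie above the other 19, which lie between -0.41 and 0.47. The largest absolute difference in the whole table is 2.41.

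Other sodium channel genes and the proteins that hold or regulate the channels were described from a list of 31 genes, of which 26 were measured by 73 probe sets and 0 were called in either direction. At an unadjusted p under 0.05, 2 of the 73 were higher and 7 lower, where 1.54% and 1.93% of the table were. With 1 probe set per gene, 13 of the 26 were higher and 13 lower, with a median log2 difference of 0.00. Scn2a, which encodes Nav1.2, the alpha subunit in whose rat counterpart RE1 was described, read 6.00, 5.57 and 5.59 with REST shRNA and 5.06, 5.26 and 5.76 in control in its brightest probe set (1427280_at), a difference of 0.36 ± 0.23 (SE) with overlapping groups. Its dim probe set 1427281_at was higher in all 3 pairs, by 0.61 ± 0.23 (SE, unadjusted limma p = 0.0321, exact permutation p = 0.1), with no array above background. The others did not share this: 1435933_at, with a mean above background, differed by 0.39 ± 0.59 (SE), with pairs at 1.21, -0.62 and 0.58. Probe set 1445259_at, also with no array above background, differed by -0.01 ± 0.17 (SE). Scn7a, known as a sodium-sensing channel, lay below background on all arrays in its 3 probe sets, and so did Scn11a in its only one. Scn10a read 3.02 to 3.21 with REST shRNA and 3.07 to 3.24 in control.

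With each gene read by its brightest probe set, the higher genes of this list with the smallest p were Fgf12, Unc79 and Unc80. Fgf12, an intracellular factor that binds the tail of sodium channel alpha subunits, read 6.91, 6.78 and 6.90 with REST shRNA, against 6.04, 6.23 and 6.54 in control, a log2 difference of 0.59 ± 0.18 (SE, unadjusted limma p = 0.0129, exact permutation p = 0.1) with groups that did not overlap. Unc79 and Unc80, parts of the sodium leak channel complex, differed by 0.59 ± 0.33 and 0.39 ± 0.23 (SE) with overlapping groups, and Unc80 had a mean below background. Without REST shRNA array 2 they differed by 0.36 and 0.22, and without control array 3 Unc79 differed by 0.37. By the same reading the lower genes were Ptprz1, Fgf11 and Nrcam. Ptprz1, a receptor phosphatase of radial glia that can bind sodium channels, differed by -0.35 ± 0.14 and Nrcam, an adhesion molecule of the node of Ranvier, by -0.50 ± 0.22 (SE each), both without overlap between groups. Fgf11, of the same family as Fgf12, differed by -0.89 ± 0.37 (SE), with -1.94 in pair 2 and -0.46 and -0.26 in pairs 1 and 3. Without REST shRNA array 2, Fgf11 differed by -0.56 and Nrcam by -0.30. The other probe set of Fgf11 (1421793_at), also above background, differed by -0.17 ± 0.33 (SE), with pairs at 0.36, -1.24 and 0.35. Dimmer probe sets of other genes had smaller p-values than some of these, and they are named after their values were seen. Fgf13, again of the family of Fgf12, read 4.75, 5.45 and 5.95 with REST shRNA, against 3.89, 3.72 and 5.22 in control, in 1418498_at, a log2 difference of 1.11 ± 0.47 (SE, unadjusted limma p = 0.0504, exact permutation p = 0.2) that was positive in all 3 pairs with overlapping groups. Camk2d, a protein kinase, differed by -0.55 ± 0.20 in 1460630_at, Fgf14, of the same family as Fgf12, by -0.69 ± 0.27 in 1458830_at, and Dlg1, a scaffold protein, by -0.37 ± 0.15 in 1450768_at (SE each). The groups of Fgf14 overlapped there, with 0.06 in pair 1, and its brighter probe sets 1449958_a_at and 1435747_at differed by -0.14 and -0.13.

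The genes whose profile over the 6 arrays was most like that of 2 members were looked up, those being the members whose brightest probe set was above background and ranged over at least 1 log2 unit. Likeness was the root mean square difference of profiles, each centred on its own mean, over 13825 genes above background. For Scn3b (1435767_at) the nearest were 2900026A02Rik at 0.151, Ramp2, an accessory protein of G protein-coupled receptors, at 0.188 and Scrt2, a zinc finger factor of newborn neurons, at 0.215, where a flat profile lay at 0.613. These 3 genes read higher with REST shRNA by 0.82, 0.73 and 0.97 on the log2 scale, and none was called. Genes chosen for a profile like that of 1435767_at share its direction through that choice. For Scn3a (1439204_at) they were Gm10033 at 0.0554, Myh3 at 0.119 and Zfp37 at 0.122, where a flat profile lay at 0.445, with log2 differences of 0.03, -0.01 and -0.10. With 6 arrays and 13825 genes, these nearest profiles are given as a description, with no test.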

How the data were processed

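Total RNA was extracted with Trizol and biotin-labelled cDNA was hybridised, per the labels' protocols. The authors deposited log2 signals per probe set, the unit being read from their range, and a method of normalization is not given in the sources used here. No further scaling was done. Groups and replicate numbers came from the titles.

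Of 45101 probe sets, 64 were Affymetrix controls. GEO's platform annotation gave 34945 of the other 45037 1 gene and 932 several, and the 9160 it does not list stay unnamed. Limma 3.58.1 in R 4.3.3 (lmFit, eBayes, the group alone in the model) was tested on simulated data. In these the noise was drawn independently for each probe set and array, unlike the measured arrays, whose deviations correlate, so rates there may differ. Over 10 simulated tables limma called 7.6% of 2-fold and 57.8% of 4-fold changes, with 3.3 false calls per table. A missing call therefore says little about changes near 2-fold. The two-sided limma p-values were adjusted by Benjamini-Hochberg over all 45037, and calls were made at an adjusted p under 0.05.

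The members and lists were chosen with earlier results of these data known. Named were Rest, every member, the 3 channel partners per direction with the smallest p in the gene's brightest probe set, Scn2a, Scn7a and the genes of nearest profile, and Scn10a, Scn11a, Snap25, Fgf13, Fgf14, Camk2d and Dlg1 were added after their values were seen. The listed partners beyond the 26 measured were not analysed here. For equal replicate numbers in the titles, deviations from group means correlated at 0.117, 0.282 and 0.402, each above 0.1. For unlike numbers they ran from -0.364 to 0.231, the highest for REST shRNA array 2 with control array 1. That value is above the 0.117 of number 1, so the pairing of number 1 is the least certain. On the values of equal numbers the arrays were treated as paired in the block fit and in the differences per pair. Alternatives were that block, 2 scalings, a filter on dim probe sets, 1 probe set per gene, an intensity trend with robust variance, array weights, an unequal-variance test and leaving out arrays. Leaving out both arrays of a number was chosen after seeing the data.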

Additional observations from a re-analysis of the deposited data

How the results depend on the processing

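In every setting tried, none of the 45037 probe sets, the 21 sodium channel probe sets, the 73 partner probe sets or the 4 Rest probe sets passed the adjusted threshold, with limma or with the unequal-variance test. In the fit blocked on replicate number, the differences of Scn3b stayed at 1.35 and 0.98 with an adjusted p of 0.998 each, and the block changed no call. Over all settings that kept the probe sets, Scn3b stayed positive. Leaving out arrays gave 1.01 to 1.70 for 1426328_a_at and 0.69 to 1.24 for 1435767_at, and 1435767_at missed an unadjusted 0.05 with REST shRNA array 3 left out (0.0554), with both arrays numbered 1 (0.0651) or 2 (0.0508) left out and in the unequal-variance test (0.073). Array weights gave Unc79 0.18. The median over the 21 ran from -0.01 to 0.27 and that over the partners from -0.21 to 0.03. Counts at an unadjusted p under 0.05, 692 higher and 868 lower, moved to 899 higher and 675 lower with each array centred on its median, to 452 higher without dim probe sets and to 323 higher and 195 lower with 1 probe set per gene, the last pair with fewer rows tested. They moved to 1318 higher with array weights and to 486 lower with the unequal-variance test, and the cause was not tested. Leaving out arrays gave 324 to 1434 higher and 513 to 1367 lower, the lowest without control array 1 (324 and 513) and the highest without REST shRNA array 2 (1434 higher) and REST shRNA array 1 (1367 lower). Signs turned for 8 of the 21 probe sets, none of them of Scn2b or Scn3b. With each array centred on its median, which shifts all rows alike, 1423515_at of Scn8a read 0.03, 1442809_at and 1442810_x_at of Scn9a 0.03 and 0.02, and 1450121_at of Scn1a 0.02. With quantile normalization 1423515_at read 0.00, and with array weights it read 0.01 and 1450121_at 0.32. Leaving out arrays turned the sign of 1439204_at of Scn3a (-0.39 to 0.38), of Scn1a in 1450120_at (-0.23 to 0.33), 1441728_at (-0.18 to 0.33) and 1450121_at (-0.45 to 0.34), of Scn4b (-0.05 to 0.29), of 1423515_at (-0.09 to 0.12) and of 1442809_at (-0.07 to 0.03) and 1442810_x_at (-0.12 to 0.11). The number of the 21 above background was 11 with the receptor reference in place of 12. Signals at background limit what can be seen of Scn4b, Scn9a and the dim probe sets of Scn1a and Scn3a.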
